A study of Mus musculus with 5 samples.

Results

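The nuclei described here carry the authors' label PT(S1), the first segment of the proximal tubule, in a library of mouse kidney nuclei taken at day 14 of UUO. In this operation, unilateral ureteral obstruction, the outflow of 1 kidney is tied off, and its tubules dilate and scar. The PT(S1) nuclei were chosen by that deposited label alone and numbered 280 of 6147 UUO barcodes (4.56%, exact binomial 95% interval 4.05 to 5.11) and 280 of the 17542 barcodes of the series. Among the 2352 UUO barcodes with any proximal tubule label they made up 11.9% (10.6 to 13.3). They were compared with the UUO labels PT(S2), 1401 barcodes, PT(S3), 473 barcodes, and Dediff. PT, 117 barcodes of dedifferentiated proximal tubule, and with 452 barcodes labelled PT(S1-S2) in a library of healthy kidney nuclei made on the same 10x Chromium droplet system. The healthy label joins S1 and S2, so it is not matched to PT(S1) alone. Healthy PT(S1-S2) nuclei from sNucDrop-seq, 937 barcodes, and DroNc-seq, 1311 barcodes, served as other references, and the cells of the healthy Drop-seq library were not used. Nuclei were freed in a commercial lysis buffer, all groups were kidney without a stated transgene or drug, and the labels give no sex, age or number of animals and name C57BL/6 mice only in the protocol for dissociated cells. Each group is 1 library, so no comparison was tested, and every interval below covers counting error only.

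The proximal tubule takes back most of the solute that the glomerulus filters. Its first segment lies next to the glomerulus and is known for sodium-coupled phosphate, glucose, lactate and amino acid carriers in the brush border and for protein uptake through megalin and cubilin, while the last segment, S3, carries a different set of carriers. The segment also makes glucose and burns fatty acids. After injury, proximal cells are known to lose these genes and to switch on adhesion molecules, chemokine genes and secreted proteins.

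The PT(S1) barcodes held 390639 unique molecular identifiers (UMIs), with a median of 1278 UMIs and 820.5 genes each. The medians were 1372 UMIs in PT(S2), 1544 in PT(S3), 1526 in Dediff. PT and 1270 in healthy PT(S1-S2). In PT(S1) 1 barcode held more than 3 times the label's median, and 23 barcode sequences occurred in both 10x libraries, 1 of them in PT(S1). Levels are CPM, the UMIs of a gene in the summed barcodes of a label scaled to all UMIs of that sum. A gene was measured in a comparison when the 2 sums held at least 20 UMIs of it, and it is called higher or lower when its level differed at least 2-fold and the 95% interval of the ratio left out equality. Sex differed between the 10x libraries: Xist, the RNA of the inactive X chromosome, stood at 1702 CPM in healthy PT(S1-S2) and at 0 in PT(S1), and Uty, a Y-linked gene, at 6.23 and 381 CPM. In the healthy comparison, obstruction, sex and library therefore cannot be told apart. Of the other healthy references, sNucDrop-seq PT(S1-S2) nuclei held the Y-linked gene Ddx3y at 125 CPM and DroNc-seq nuclei at 2.45. In PT(S1) this gene stood at 66.6 CPM.

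The markers of the label were present. Slc34a1, the main phosphate carrier of the brush border (chr13:55398187-55415592, plus strand, mm10, gene bounds from the GENCODE M21 annotation), stood at 1620 CPM in PT(S1), against 82 in PT(S2), 19.4 in PT(S3) and 10.3 in Dediff. PT, and at 14293 CPM in healthy PT(S1-S2). Slc5a12, a sodium-coupled lactate carrier (chr2:110597298-110647779, plus strand), stood at 1508, 85, 2.58, 77.1 and 347 CPM in the same order. Lrp2, which encodes megalin (chr2:69424340-69586065, minus strand), stood at 873, 392, 291, 283 and 2550 CPM. All 3 were highest in PT(S1) among the 4 UUO labels, and their intervals there did not overlap those of the other UUO labels. The authors drew their labels on these same nuclei, so this order describes the label and is not a separate result. Where proximal markers should be missing, UUO podocytes held 0 UMIs of Slc34a1, which allows up to 30.6 CPM, and UUO endothelium held 27.6 CPM.

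Slc34a1 alone among 17 early-segment carrier genes with a promoter in RefSeq (GRCm38.p6, 1 window per gene) held the HNF1 core GTTAAT within 250 bases before its start, on either strand. The core was in 6.52% of all 27025 promoters of that length. The HNF4 core CAAAGTCCA was in 1 of the 17, Slc3a1, and in 0.381% of all, and the AP-1 site TGACTCA was in 2, Slc26a1 and Slc3a1, and in 4.43%. The promoters of the phosphate carrier, with 2 HNF1 cores, and of Slc3a1, the heavy chain of the cystine carrier, with 1 HNF4 core and 1 AP-1 site, are shown as examples with a match. A link between a match and the level of the gene was not tested. Both promoters are printed 5′ to 3′ along the gene, with the matches in capitals, from chr13:55399398-55399647 and chr17:85028097-85028346, both on the plus strand. RefSeq places the Slc34a1 start inside the gene bounds given above, which come from another annotation.
Slc34a1: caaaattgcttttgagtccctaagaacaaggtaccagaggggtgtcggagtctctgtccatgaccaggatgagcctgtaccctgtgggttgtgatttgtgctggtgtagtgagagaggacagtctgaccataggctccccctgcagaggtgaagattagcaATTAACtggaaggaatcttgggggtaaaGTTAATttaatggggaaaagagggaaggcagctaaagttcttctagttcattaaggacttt
Slc3a1: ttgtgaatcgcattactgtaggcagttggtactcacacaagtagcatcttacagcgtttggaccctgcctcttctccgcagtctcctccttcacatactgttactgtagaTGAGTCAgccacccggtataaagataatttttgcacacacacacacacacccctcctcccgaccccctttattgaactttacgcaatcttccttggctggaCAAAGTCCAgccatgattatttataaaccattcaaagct
In Slc34a1 the cores began 61 and 89 bases before the start. In Slc3a1 the HNF4 core began 39 and the AP-1 site 140 bases before it. A match describes letters in the sequence and is no evidence of binding.

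**Figure D1:**
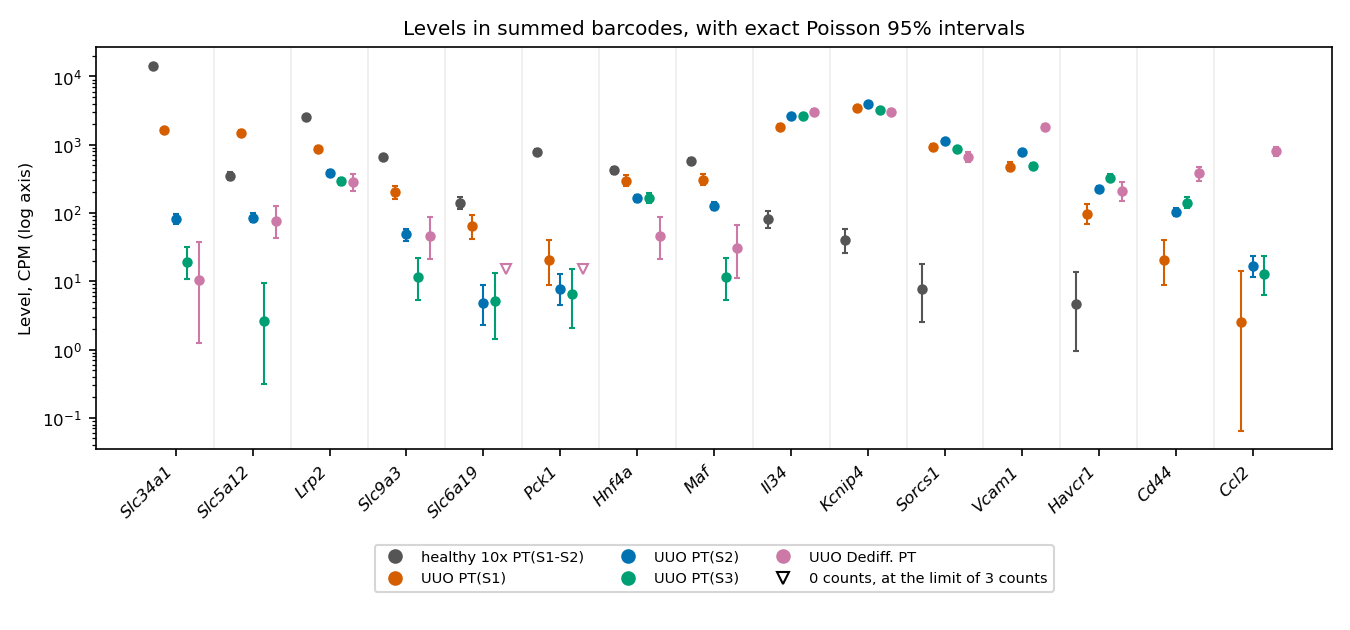
Level of 15 genes in the summed barcodes of 5 labels, in CPM on a log axis; points are levels, bars are exact Poisson 95% intervals, and open triangles mark 0 UMIs at the limit of 3. Slc34a1 and Slc5a12 were above 1500 CPM in PT(S1) and at most 85 CPM in the other 3 UUO labels, whereas Kcnip4 and Sorcs1 were close together in all 4. Il34 was lowest in PT(S1) among these UUO labels. Genes with 0 UMIs in the whole healthy 10x library (Vcam1, Cd44) and Ccl2, which the healthy table does not list, have no healthy point.

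Against healthy PT(S1-S2), the phosphate, glucose and amino acid carriers of the early segment were mostly lower in PT(S1), and the injury genes mostly higher. Over 7050 measured genes, 837 (11.9%) were higher in PT(S1) and 1302 (18.5%) lower, with a median log2 ratio of -0.11. The size of single differences depended on the healthy library: of the gene ratios tracked across references, 47 of 81 lay outside the interval given with 10x nuclei, beside those called ratios that changed sign, when sNucDrop-seq was the reference and 41 of 82 when DroNc-seq was. Slc34a1 was 8.82-fold lower than in healthy 10x nuclei (log2 -3.14, 95% interval -3.26 to -3.02). The other healthy nucleus libraries lay between the 10x libraries, since Slc34a1 stood at 5574 CPM in PT(S1-S2) nuclei of sNucDrop-seq and at 4591 in those of DroNc-seq. Slc5a2, the main glucose carrier of the early tubule, had 1 UMI in PT(S1), or 2.56 CPM, and 51.4 CPM in healthy 10x nuclei (log2 -4.33, -9.67 to -1.75). It stood at 168 and 131 CPM in the other 2 healthy libraries.

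Of 16 measured early-segment carriers, 12 were lower, 1 was higher and 3 were neither, and their median log2 ratio was -1.59. Slc6a19, a carrier of neutral amino acids, stood at 142 CPM in healthy 10x nuclei and 64 in PT(S1), 4.85 in PT(S2), 5.17 in PT(S3) and 0 in Dediff. PT. It stood at 660.4 and 889.8 CPM in healthy sNucDrop-seq and DroNc-seq nuclei. Slc5a8, another lactate carrier, stood at 30.7 CPM in PT(S1), 296 in healthy 10x nuclei and 75.8 and 70.7 in the other healthy libraries. Slc2a2, the basolateral glucose exit, was 4.07-fold lower than in healthy 10x nuclei. Slc4a4, the bicarbonate exit, at 1725 against 1409 CPM, and Slc13a1, a sulfate carrier, at 1462 against 1180 CPM, differed less than 2-fold from the healthy level. The carriers thus differed among themselves in how far they stood from the healthy level.

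The single higher carrier, Slc5a12, depended on the reference. It was 4.34-fold higher in PT(S1) than in healthy 10x nuclei, yet it stood at 3808 CPM in healthy sNucDrop-seq and at 5078 CPM in healthy DroNc-seq nuclei, which gave log2 ratios of -1.34 and -1.75. With PT(S1) and PT(S2) summed, to match the healthy label, the log2 ratio was -0.16. Slc9a3, the sodium-proton exchanger of the brush border, stood at 202 CPM in PT(S1), at 654 CPM in healthy 10x nuclei and at 187 and 206 CPM in the other healthy libraries. Slc3a1 stood at 136, 379.9, 104 and 163 CPM in the same order. For these 3 genes the sign of the difference changed between the 10x and the sNucDrop-seq reference.

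Basolateral and drug carriers were mostly lower too. Of 18 measured, 14 were lower and 1 higher, with a median log2 ratio of -1.78. Slc13a3, a dicarboxylate carrier, stood at 12.8 CPM in PT(S1) and 962 in healthy 10x nuclei, 75.2-fold lower. Slc22a8 and Slc22a6, the organic anion carriers OAT3 and OAT1, had 1 UMI each in PT(S1), against 212 and 115 CPM in healthy 10x nuclei. All 3 stood at 12.8 CPM or less in every UUO proximal label named here. Abcc4, an export pump for organic anions, was the exception, at 581 CPM against 193 CPM. Kcnj15, a potassium channel subunit, was 5.09-fold lower, whereas Kcnj16, another subunit of such channels, stood at 1426 against 1079 CPM and was not called.

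Genes of protein uptake were divided. Cubn, which encodes cubilin, stood at 64 CPM in PT(S1) and 725 in healthy 10x nuclei, 11.3-fold lower, and Lrp2 was 2.92-fold lower (log2 -1.55, -1.72 to -1.38). Their adaptor Dab2 stood at 1894 against 2710 CPM and the folate receptor Folr1 at 312 against 234 CPM, both within 2-fold. Of the 20 measured genes of endocytosis, lysosome and brush border, 8 were lower, 1 was higher and the median was -0.40. Cubn in PT(S1) lay no higher than in PT(S2), at 66.5 CPM, or PT(S3), at 98.2, while Lrp2 and Dab2 were highest in PT(S1) among the UUO labels.

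**Figure D2:**
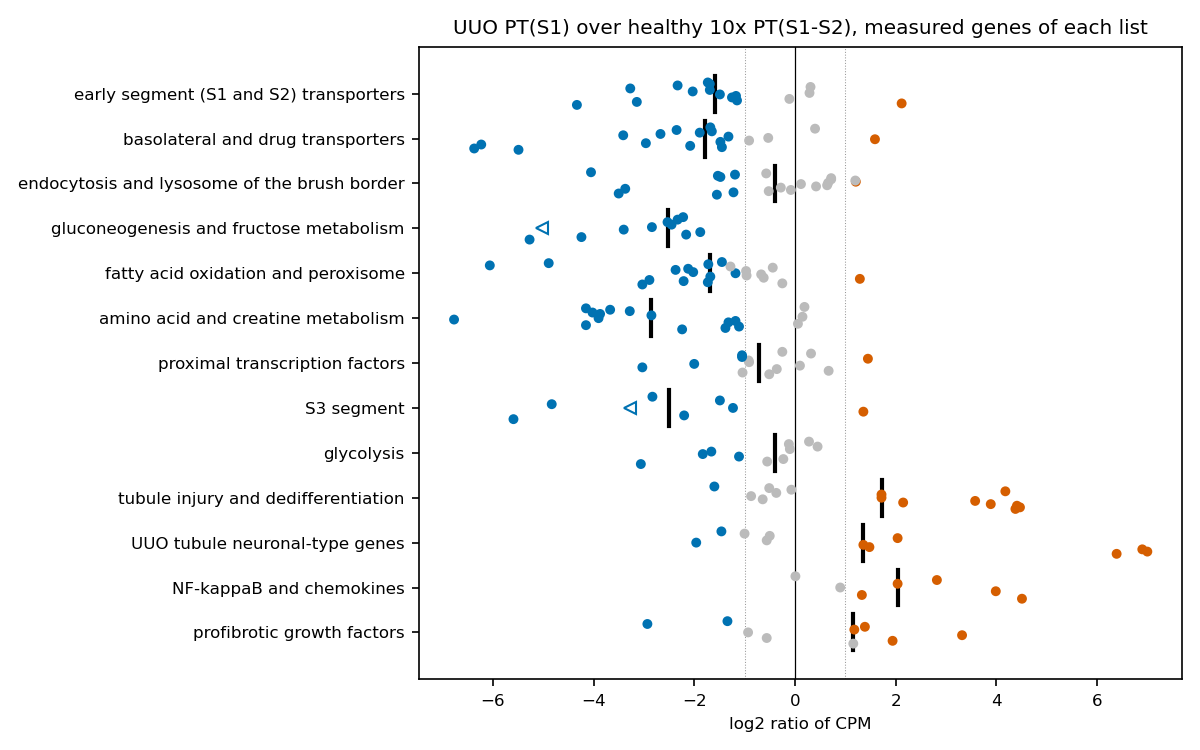
log2 ratio of CPM, PT(S1) over healthy 10x PT(S1-S2), for the measured members of 13 gene lists; each point is a gene (orange higher, blue lower, grey neither), open triangles are limits for genes at 0 in 1 sum, thick bars are list medians and dotted lines mark 2-fold. All 11 genes of gluconeogenesis and fructose metabolism lie left of the 2-fold line on the lower side, and most injury genes lie right of 0.

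The measured genes of glucose synthesis and fructose metabolism were lower without exception. All 11 measured genes of gluconeogenesis and fructose metabolism were lower, with a median of -2.53, and -3.55 and -3.17 against healthy sNucDrop-seq and DroNc-seq nuclei. Pck1, which starts glucose synthesis, stood at 20.5 CPM in PT(S1) against 789 in healthy 10x nuclei (38.5-fold lower). G6pc, which releases free glucose, had 0 UMIs in PT(S1) against 251 CPM, at least 32.6-fold lower. Of 17 measured genes of amino acid and creatine metabolism, 14 were lower (median -2.85), led by Miox, the inositol oxygenase of the tubule, at 15.4 against 1680 CPM. Ass1, which makes argininosuccinate for arginine synthesis, stood at 115 against 1723 CPM. Ddc, dopa decarboxylase, was not called and stood at 225 against 198 CPM.

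Fatty acid oxidation followed in part. Of 21 measured genes 13 were lower and 1, Acadl, was higher, with a median of -1.68. Ppara, the nuclear receptor that drives these genes, stood at 92.2 CPM against 754 (8.18-fold lower). Acsm1, a medium-chain acyl-CoA synthetase, stood at 335 against 1361 CPM. Ppargc1a, a coactivator of mitochondrial genes, at 399 against 475 CPM, differed less than 2-fold. Of 10 measured glycolysis genes, 4 were lower and 0 higher, with a median of -0.39 that became 0.46 against DroNc-seq nuclei.

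Of 14 measured transcription factors of the segment, 4 were lower than in healthy 10x nuclei and 9 were neither. The remaining 1, Pax8, was higher, at 970.2 against 355 CPM. Over all measured genes 18.5% were lower and 11.9% higher. The median was -0.71, and -0.04 and -0.15 against healthy sNucDrop-seq and DroNc-seq nuclei. Hnf4a, the nuclear receptor that sustains proximal identity, stood at 299.5 CPM in PT(S1) and 427 in healthy 10x nuclei, then at 164, 168 and 46.3 CPM in PT(S2), PT(S3) and Dediff. PT. Maf stood at 307, 581, 127, 11.6 and 30.8 CPM in that order. Among these 4 UUO labels both were highest in PT(S1). Of 17 measured genes of hormone response 9 were lower, among them Ghr, the growth hormone receptor, at 1405 against 5310 CPM, and Kl, which encodes klotho, at 43.5 against 239.8 CPM. Esr1, the estrogen receptor, was higher, at 264 against 93.4 CPM.

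Injury and dedifferentiation genes went the other way. Of 15 measured members 9 were higher and 1 lower, with a median of 1.72, and 2.88 and 2.80 against healthy sNucDrop-seq and DroNc-seq nuclei. A further 6 members were listed at 0 in the healthy 10x library. Havcr1, the kidney injury molecule KIM-1, stood at 97.3 CPM in PT(S1) and 4.67 in healthy 10x nuclei (3 UMIs, log2 4.38, 2.72 to 6.72), but podocytes and endothelium of the UUO library held 81.5 and 63 CPM, so its level in PT(S1) was near that of other cells. Dcdc2a, a doublecortin-domain gene, was 18.1-fold higher, at 1185 against 65.4 CPM. Itgav, an integrin subunit, was 3.3-fold higher, at 893 CPM. In UUO thick ascending limb these 2 genes stood at 1175 and 1126 CPM, so neither was particular to the proximal labels. Vcam1, an adhesion molecule for leukocytes, was listed at 0 in the whole healthy 10x library and stood at 479 CPM in PT(S1), 774 in PT(S2), 492 in PT(S3) and 1825 in Dediff. PT. Spp1, which encodes osteopontin, stood at 2821 CPM in PT(S1), but UUO podocytes held 2862, endothelium 3977 and thick ascending limb 4945 CPM, so its level in PT(S1) was no higher than in cells of other types. Summed over the list, PT(S1) held 7629 CPM, podocytes 6295 and endothelium 7927.

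Genes better known from neurons were also mostly higher than in healthy 10x nuclei. Of 11 measured, 6 were higher and 2, Robo2 and Kcnma1, lower, with a median of 1.36. Kcnip4, a subunit of voltage-gated potassium channels, stood at 3400 CPM in PT(S1) against 40.5 in healthy 10x nuclei, 84-fold higher, and at 560.2 and 473 CPM in UUO podocytes and endothelium. Sorcs1, a sorting receptor, stood at 927 CPM against 7.78. Kcnh8, another potassium channel subunit, stood at 199.7 CPM in PT(S1) and at 508, 773 and 550.0 in PT(S2), PT(S3) and Dediff. PT. PT(S1) thus held Kcnip4 and Sorcs1 at levels within 1.39-fold of the other UUO proximal labels.

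Of the 22 genes of the NF-kappaB and chemokine list, 7 were measured against healthy 10x nuclei and 7 were listed at 0 in that library. Among the measured genes 5 were higher and 0 lower (median 2.04). A gene rare in healthy nuclei, such as Relb, was measured only through its UMIs in PT(S1), which shapes this count. Il34, a ligand of the macrophage receptor CSF1R, stood at 1846 CPM in PT(S1) and 81 in healthy 10x nuclei (22.8-fold), against 652, 532 and 1091 CPM in UUO podocytes, endothelium and thick ascending limb. Among the compared UUO proximal labels it was lowest in PT(S1), at 2280% of the healthy 10x level. It stood at 3205%, 3271% and 3778% of that level in PT(S2), PT(S3) and Dediff. PT. Relb, an NF-kappaB subunit, was 15.9-fold higher (3 UMIs in healthy nuclei, log2 3.99, 2.30 to 6.35) and Birc3, a target gene, 7.06-fold higher. At 74.2 and 187 CPM their levels were close to those in UUO podocytes (71.3 for each) or endothelium (110.3 and 154). Pdgfd, a growth factor for mesenchymal cells, was 9.96-fold higher, at 822 CPM, but stood at 874 and 1274 CPM in UUO endothelium and thick ascending limb. Bmp6, a growth factor of the TGF-beta family, was 2.62-fold higher, at 1618 CPM, with at most 255 CPM in those 2 labels and in podocytes. Vegfa, the endothelial growth factor, was 7.6-fold lower. H2-K1, a class I antigen presentation gene, stood at 223 against 7.78 CPM, with 354 CPM in UUO endothelium.

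Ugt2b37, a glucuronosyltransferase, stood at 640.0 CPM in PT(S1), 174 in PT(S2), 37.5 in PT(S3) and 41.1 in Dediff. PT. It was listed at 0 in the healthy 10x library and at 56.4 and 8.99 CPM in the other healthy nuclei. Members of this family are near-identical, so the split of reads among them is uncertain. Cyp2j13, a cytochrome P450 of another such family, stood at 243 CPM in PT(S1) and 1.56 in healthy 10x nuclei. It stood at 943 CPM in healthy sNucDrop-seq nuclei, where Xist was at 0. Sex and library cannot be told apart here, and the cause was not tested. On the lower side, Rdh16f2, of the retinol dehydrogenase family, and Ces1d, a carboxylesterase, had 0 UMIs in PT(S1) against 531 and 226 CPM in healthy 10x nuclei, at least 69.1-fold and 29.4-fold lower. These families also hold near-identical copies.

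Within the obstructed kidney, early carriers led the difference between PT(S1) and PT(S2). Of 9180 measured genes 203 (2.21%) were higher in PT(S1) and 201 (2.19%) lower, a split that TMM scaling turned to 157 and 261. The 8 genes that led the higher side were Slc34a1 (19.7-fold), Slc5a12 (17.7-fold), Slc6a19 (13.2-fold), Pde1a, Ccdc85a, Ugt2b37, Slc9a3 and Angpt1. Pde1a, a phosphodiesterase, stood at 502 CPM in PT(S1), 89.3 in PT(S2), 37.5 in PT(S3), 118 in Dediff. PT and 142 in healthy 10x nuclei. Of 15 measured early carriers 5 were higher and 0 lower. Of 7 genes on the list of gluconeogenesis and fructose metabolism 5 were higher, among them Gk, glycerol kinase, at 282 against 123 CPM. The labels S1 and S2 come from the same expression data, so these counts describe the labels.

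On the lower side against PT(S2) were Smox, spermine oxidase, at 15.4 against 78.2 CPM, and Cd44, a hyaluronan receptor of injured tubules, at 20.5 against 105 CPM (5.14-fold, log2 -2.36, -3.59 to -1.36). Of 25 measured injury genes 4 were lower, Havcr1, Cd44, Plin2 and Nrg1, and 0 higher. Vcam1 at 479 against 774 CPM and Itgav at 893 against 1610 CPM did not reach 2-fold. Of 18 NF-kappaB and chemokine genes 4 were lower, Ccl2, Cxcl2, Nfkb1 and Traf1, and of 11 neuronal-type genes 4 were lower. The other 21 injury genes were not called.

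Against PT(S3), 312 of 6842 measured genes (4.56%) were higher in PT(S1) and 371 (5.42%) lower. Of 9 measured genes that mark the last segment, S3, 6 were lower in PT(S1) and 0 higher. Both labels come from the same expression data, so the differences in this comparison describe the labels. Slc7a12, an amino acid carrier, had 1 UMI in PT(S1), 2.56 against 318 CPM. Bcat1, which breaks down branched-chain amino acids, stood at 35.8 against 1062 CPM, and Cyp7b1, a sterol hydroxylase, at 17.9 against 274 CPM. Sorcs2, a relative of Sorcs1, and Prlr, the prolactin receptor, had 0 UMIs in PT(S1) against 149 and 71.1 CPM, at least 19.4-fold and 9.26-fold lower. In the other direction Slc5a12 stood at 1508 against 2.58 CPM (2 UMIs in PT(S3), log2 9.19, 7.33 to 12.24), and Maf at 307 against 11.6 CPM. Slc5a8, on the early list, was lower in PT(S1), at 30.7 against 103 CPM. Of 22 measured injury genes 7 were lower, among them Cd44 and Cdh6, a cadherin of the developing nephron, at 358 against 883 CPM, and 1, Krt18, was higher.

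In the comparison with Dediff. PT, the smallest sum with 194539 UMIs, several chemokine and adhesion genes were lower in PT(S1). Both labels come from the same expression data, so these differences describe the labels. Of 4629 measured genes 279 (6.03%) were higher in PT(S1) and 200 (4.32%) lower. Ccl2, a monocyte chemokine, had 1 UMI in PT(S1) and stood at 2.56 against 802 CPM (log2 -8.29, -13.60 to -5.79), and it was at 16.5 and 12.9 CPM in PT(S2) and PT(S3). Cd44 stood at 20.5 against 380.4 CPM, and Plat, the tissue plasminogen activator, at 15.4 against 154 CPM. Vcam1 was 3.81-fold lower in PT(S1) and Itgav 3.1-fold lower. Of 13 measured NF-kappaB and chemokine genes 9 were lower in PT(S1) and 0 higher (median -1.94), and of 19 injury genes 7 were lower and 0 higher. A gene rare in PT(S1), such as Ccl2, was measured only through its UMIs in Dediff. PT, which shapes these counts. Cxcl1, a neutrophil chemokine, stood at 56.3 against 242 CPM and Icam1, a leukocyte adhesion molecule, at 33.3 against 159 CPM.

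Proximal identity genes were higher in PT(S1) than in Dediff. PT, which describes how the labels were drawn, since both labels come from the same expression data. Of 10 measured identity genes 7 were higher and 0 lower (median 2.08), and of 13 early carriers 8 were higher and 0 lower. Hnf4a was 6.47-fold higher in PT(S1), Maf 9.96-fold and Dab2 5.05-fold. Atp6v0a4, a subunit of the proton pump, stood at 494 against 30.8 CPM, with 1403 CPM in healthy 10x nuclei. Acsm1 was 5.44-fold higher and Esr1 17.1-fold (3 UMIs in Dediff. PT, log2 4.10, 2.51 to 6.40). Slc4a4, at 1725 against 1799 CPM, Kcnip4, at 3400 against 3069 CPM, and Dcdc2a, at 1185 against 1079 CPM, stood near the same level in both labels. All 4 comparisons share the PT(S1) sum and are not independent of one another.

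**Figure D3:**
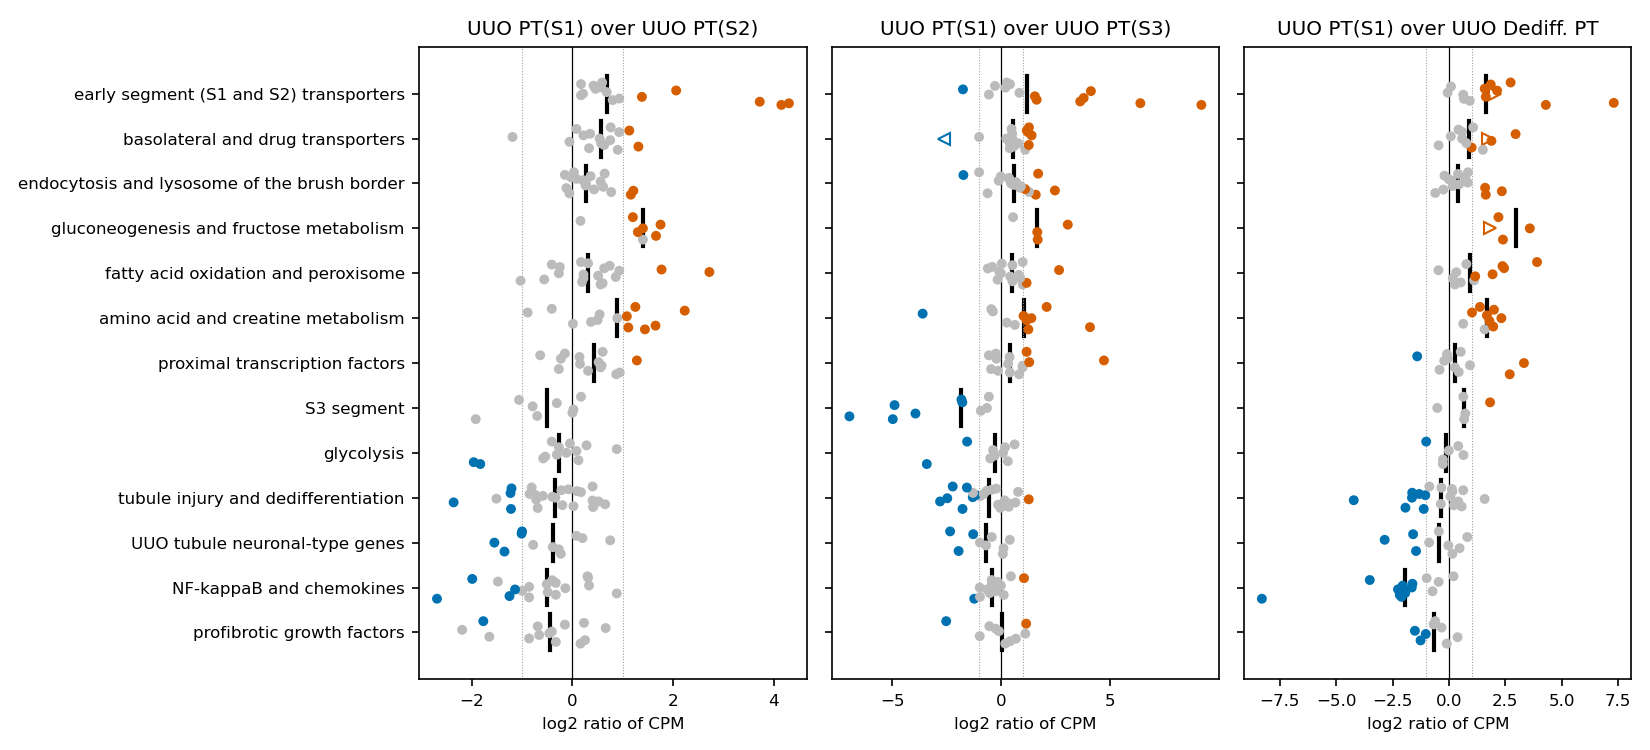
log2 ratio of CPM, PT(S1) over PT(S2), PT(S3) and Dediff. PT, for the measured members of 13 gene lists; colours, triangles, bars and dotted lines are as in the plot of lists against healthy nuclei. The medians of the early carriers lie right of 0 in all 3 panels, S3 genes lie far left against PT(S3), and NF-kappaB and chemokine genes lie left against Dediff. PT.

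Single nuclei were compared after each barcode had been thinned to 500 UMIs, which left out 6 of 280 PT(S1) and 46 of 452 healthy barcodes. A UMI of Slc34a1 was found in 39.4% of PT(S1) barcodes (exact interval 33.6 to 45.5), in 3.33% of PT(S2), 1.28% of PT(S3) and 89.4% of healthy PT(S1-S2) (86 to 92.2). In Dediff. PT it was found in 0 of 117, which allows a share of up to 2.56% by the limit of 3 counts and 3.1% by the exact interval. UUO podocytes had it in 0 of 80 and endothelium in 1.14%, at median depths of 978 and 816 UMIs before thinning against 1286 in PT(S1). Slc5a12 was found in 40.9% (35 to 47) of PT(S1) and 4.27% of PT(S2). Before thinning the shares in PT(S1) were 56.8% for Slc34a1 and 56.4% for Slc5a12. These shares describe detection at this depth and not the fraction of nuclei that express a gene.

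Transcripts of the injury, neuronal-type and NF-kappaB lists were found in part of the PT(S1) barcodes. Kcnip4 was found in 53.3% (47.2 to 59.3) of PT(S1) barcodes, against 10% of podocytes, 9.71% of endothelium, 8.63% of thick ascending limb and 2.71% of healthy PT(S1-S2). Il34 was found in 50.7% (44.6 to 56.8), against 20%, 13.7%, 35.8% and 3.45%. Its share was higher in PT(S2), at 62.2% (59.6 to 64.8), and in Dediff. PT, at 69.2% (60 to 77.4). Vcam1 was found in 16.8% (12.6 to 21.8) of PT(S1), 28.2% (25.8 to 30.6) of PT(S2) and 49.6% (40.2 to 59) of Dediff. PT, with 6.25% of podocytes and 7.43% of endothelium. The intervals of Kcnip4 and Il34 in PT(S1) lay above those of these 2 labels, whereas the interval of Vcam1 overlapped that of podocytes (2.06 to 14). Spp1 was found in 76.3% of PT(S1) and 72.5% of podocytes, and the shares did not differ beyond their intervals.

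**Figure D4:**
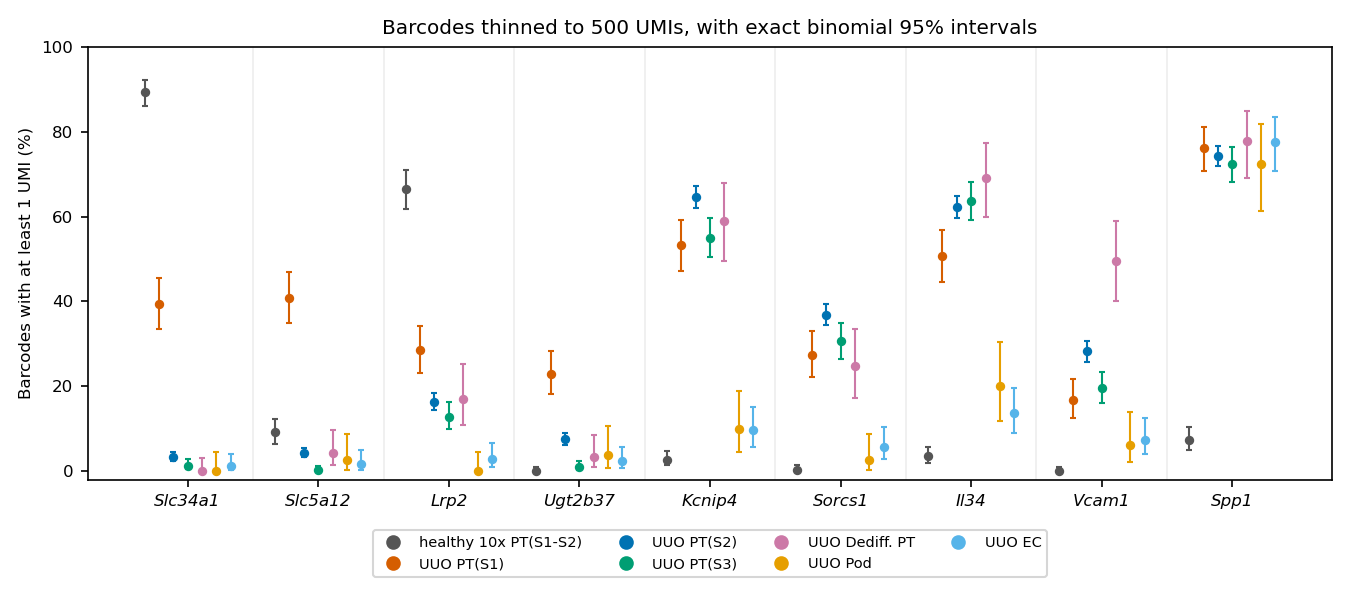
Percent of barcodes with at least 1 UMI of 9 genes after thinning to 500 UMIs, in 5 proximal labels and in UUO podocytes (Pod) and endothelium (EC); bars are exact binomial 95% intervals. Slc34a1 and Slc5a12 were found in 39.4% and 40.9% of PT(S1) barcodes and in under 5% of every other UUO label shown, while Kcnip4 and Il34 were found in over 50% of barcodes in all 4 UUO proximal labels.

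Early carriers and injury transcripts were found in the same barcodes. Of 171 thinned PT(S1) barcodes with a UMI of Slc34a1 or Slc5a12, 124 also held a UMI of Il34, Vcam1, Havcr1 or Dcdc2a (72.5%, 65.2 to 79.1). Of the 103 without either carrier, 82 did (79.6%, 70.5 to 86.9). The intervals overlap. The same share among barcodes without a carrier was 38.5% (27.7 to 50.2) in podocytes and 29.4% (22.7 to 36.9) in endothelium. Among healthy barcodes with a carrier it was 4.11% (2.32 to 6.69). Vcam1, listed at 0 in the whole healthy 10x library, could not add to this healthy share. In PT(S2) the share was 81.7% (72.9 to 88.6) with a carrier and 85.4% (83.4 to 87.3) without. In thick ascending limb Dcdc2a alone was found in 38.4% of barcodes and Il34 alone in 35.8%. Such injury transcripts were therefore not particular to PT(S1). Of 500 UMIs, the median PT(S1) barcode held 3 of the 20 early carriers and 4 of the 25 injury genes. Healthy PT(S1-S2) held 10 and 1, PT(S2) 1 and 5, and Dediff. PT 1 and 5. In the whole healthy 10x library 1 of the 20 carriers and 6 of the 25 injury genes were listed at 0, so its medians leave these out. PT(S1) was thus between healthy 10x nuclei and the other UUO labels in carriers, with 6.57% of its barcodes at 0 carrier UMIs against 4.19% in healthy nuclei and 24% in PT(S2). The 20 carriers summed to 20678 CPM in healthy 10x nuclei, most of it Slc34a1, and to 7408 CPM in PT(S1). Slc34a1 and Slc5a12 are also markers of the label, so the lead over the other UUO labels in part describes the label. In the other healthy libraries Slc34a1 stood lower than in 10x nuclei. In UUO podocytes the medians were 0 and 2.5, in endothelium 0 and 3, and in thick ascending limb 0 and 5.

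**Figure D5:**
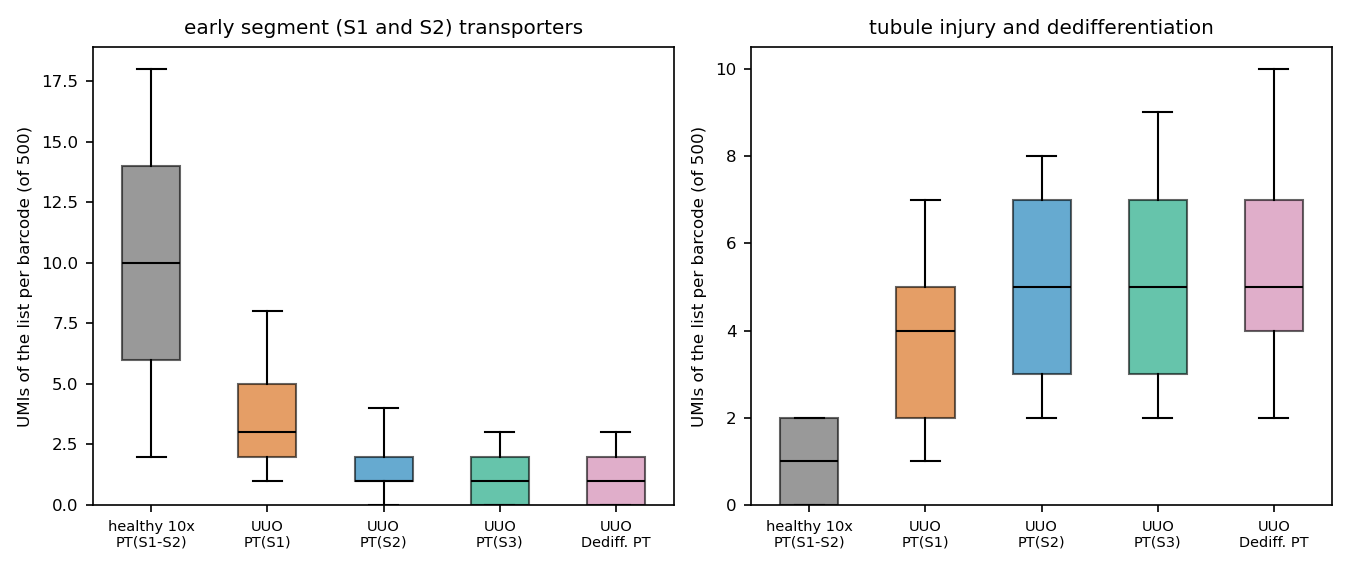
UMIs of the early carriers (left) and of the injury genes (right) per barcode of 500 UMIs; boxes span the quartiles, lines mark medians and whiskers the 10th and 90th percentiles, over barcodes of 1 library per label. The PT(S1) median of 3 carrier UMIs lies between 10 in healthy nuclei and 1 in the other UUO labels, and its median of 4 injury UMIs lies above the healthy 1. The carriers include Slc34a1 and Slc5a12, markers of the label. Of the 25 injury genes, 6 were listed at 0 in the whole healthy 10x library.

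Markers of other cell types were summed in the same way, and several sums differed between libraries. The 8 thick ascending limb markers summed to 284 CPM in PT(S1), 139 to 169 in the other 3 UUO labels and 2925 in healthy PT(S1-S2), where Slc12a1, the salt carrier of that limb, stood at 1501 CPM against 28.2 in PT(S1). Umod and Cldn16 were at 0 in PT(S1). The 8 markers of connecting tubule and principal cells summed to 69.1 CPM in PT(S1), 64.6 to 78.2 in the other UUO labels and 1714 in healthy nuclei. Of 7 measured thick ascending limb markers 6 were lower in PT(S1) than in healthy nuclei. Egf, on the hormone list, is one of them, at 5.12 against 476 CPM. The part of this difference in the results above was not tested.

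The 6 markers of distal convoluted tubule summed to 1285 CPM in PT(S1) and 1285 to 1391 in the other UUO proximal labels. They summed to 1151 CPM in UUO podocytes, much the same level, and to 1781 in healthy nuclei. Single markers differed more than the sum: against healthy 10x nuclei 2 of 5 measured were lower in PT(S1) and 3 were neither. Slc12a3 stood at 3.5% and Klhl3 at 9.45% of the healthy 10x level. The 11 podocyte markers summed to 2818 CPM in PT(S1), 1198 to 2575 in the other UUO labels and 3358 in healthy nuclei, with Nphs1 at 0 in PT(S1) against 744 CPM in UUO podocytes. Most of the PT(S1) sum was Magi2, a scaffold protein gene, at 1843 CPM, and Ptprd, a receptor phosphatase gene, at 847 CPM, against 48095 and 1589 CPM in UUO podocytes. The 11 endothelial markers summed to 189 CPM in PT(S1) and 149.9 to 252 in the other 4 labels, with Kdr, Plvap and Eng at 0. The 11 macrophage and lymphocyte markers summed to 131 CPM in PT(S1) and 54.5 to 171 in the other 4 labels, with Csf1r, Mrc1, Cd3e and Ms4a1 at 0. The 10 fibroblast and pericyte markers summed to 58.9 CPM in PT(S1), 50.5 to 108 in the other UUO proximal labels and 1.56 in healthy nuclei, but 7 of the 10 were listed at 0 in the whole healthy 10x library, so no contrast with it is drawn. Pdgfra, Dcn, Lum and Meg3 were at 0 in PT(S1). The 14 proximal identity genes summed to 7347 CPM in PT(S1), 2952, 2377 and 2678 in PT(S2), PT(S3) and Dediff. PT, 611 in podocytes and 24411 in healthy nuclei.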

How the data were processed

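The authors deposited UMI counts per gene and barcode in 2 tables: 21516 genes are listed for UUO, 19713 for the healthy libraries and 18249 for both. The values are raw counts, per the deposited readme, and STAR 2.5.3a and build mm10 were used, per the submitters' processing notes. Annotation, gene filters and clustering: not given in the sources used here. Cell labels are those of the authors' deposited annotation. All labelled barcodes were kept, and doublets were not called.

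Counts were summed per label and scaled to CPM over all UMIs. A log2 ratio has an exact interval conditional on the 2 counts (Clopper-Pearson, 95%), a level an exact Poisson interval and a share an exact Clopper-Pearson interval. A gene with 0 counts over the whole healthy 10x library (5137 genes of both tables) is listed at 0 and has no fold, since a gene in that library was either at 0 or in at least 4 barcodes. That condition was added after seeing the data. A sum of 0 is set at 3 counts per sum for a bound. Named genes were the 8 highest and 8 lowest per comparison ranked on the end of the interval closest to 0, without mitochondrial genes, ribosomal proteins and gene models that lack a name. Each list added the 4 measured members of highest mean CPM and those that differed at least 4-fold. Other list members were named after their values were seen. The members, the 29 gene lists and the rules were chosen with earlier results of these data known. A few genes chosen this way are not reported here. Scripts were tested on simulated data.

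Other settings tried were scaling by TMM or median of ratios, other totals, a mean over barcodes, barcode and count minimums, fold thresholds, thinning depths, and other healthy references. Python 3.11.15, numpy 2.4.6, scipy 1.17.1, pandas 2.3.3, matplotlib 3.10.9 and, for TMM, edgeR 4.0.16 under R 4.3.3 were run.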

Additional observations from a re-analysis of the deposited data

How the results depend on the processing

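Against healthy 10x nuclei, 837 genes were higher and 1302 lower in PT(S1). With at least 100 counts the numbers were 303 and 405, with a 4-fold threshold 186 and 594, with sNucDrop-seq as the healthy reference 1438 and 2483, and with DroNc-seq 1649 and 2178. Against PT(S2), 203 and 201 became 50 and 81 with at least 100 counts, 323 and 676 with 2-fold whatever the interval, and 18 and 75 with 4-fold. Against PT(S3), 312 and 371 became 73 and 105 with at least 100 counts and 62 and 110 with 4-fold, 469 were higher with at least 1 count, and 558 were lower with 2-fold whatever the interval. Against Dediff. PT, 279 and 200 became 57 and 43 with at least 100 counts and 97 and 32 with 4-fold, and 332 were lower with at least 1 count. The cause was not tested beyond the change in genes that can pass. TMM, median-of-ratios scaling, other totals, a mean over barcodes, barcodes of at least 500 UMIs and leaving out barcodes of over 3 medians (all 4 comparisons) moved none of these 8 counts by over 1.5 times.

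Single genes reversed with another reference or with PT(S1) and PT(S2) summed. In log2, the sum gave -0.16 for Slc5a12 and 0.14 for Cdh13. The sNucDrop-seq reference gave -1.34 for Slc5a12, -1.96 for Cyp2j13, 0.39 for Slc3a1, 2.26 for Slc5a10 and 0.11 for Slc9a3. DroNc-seq gave -1.75 for Slc5a12 and 1.52 for Slc5a10. Of the gene ratios tracked against healthy nuclei, another 47 of 81 moved outside the first interval with sNucDrop-seq, 41 of 82 with DroNc-seq and 39 of 82 with PT(S1) and PT(S2) summed, so these sizes hold for the 10x reference and PT(S1) alone. The cause was not tested. The median of the immediate early list went from 2.57 to 0.79 and 0.89 with sNucDrop-seq and DroNc-seq, and that of S3 genes from -2.51 to -0.50 with DroNc-seq. Thinning to 1000 UMIs moved 14 of the 15 shares and to 300 UMIs 13 of them, since a share depends on depth. No paired analysis was possible because each group has 1 library.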
